A study of Homo sapiens with 24 samples.

Results

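The mitochondrial ribosomal protein genes were taken as every row of the count table whose symbol is MRPL or MRPS followed by a number and, where there is one, a letter from A to C. The rule matched 78 of 59609 rows, of which 49 were named MRPL and 29 MRPS. MRPS18A and MRPS30 encode proteins of the large subunit in spite of their symbols and were counted with it, which left 51 large-subunit and 27 small-subunit genes. MRPS36 was kept by the rule, although its product is now regarded as a component of the oxoglutarate dehydrogenase complex.

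Counts came from 2 established breast cancer cell lines that lack the oestrogen receptor, both labelled wild type. MDA-MB-231 is a mesenchymal-like triple-negative line, and MDA-MB-453 is a luminal-like line. Each line was grown for 5 days with the solvent DMSO, with 500 nM abemaciclib, with 5 nM fulvestrant, or with the combination at the same doses. Abemaciclib inhibits CDK4 and CDK6, cyclin-dependent kinases that phosphorylate Rb, and fulvestrant degrades the oestrogen receptor. With 3 replicate libraries in each of the 8 groups, the series holds 24 libraries. Each treatment was measured in 1 culture model of each type, so a difference between the lines compares these cultures and no wider class of tumour.

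The oligo-dT-primed libraries held 2873558 to 4158762 counts, of which 17440 to 27104 fell on the mitochondrial ribosomal protein genes. Marker genes fitted the labelled lines, with VIM and CD44 at 0 counts in every MDA-MB-453 library. Under DMSO, VIM averaged 1509 ± 156 CPM in MDA-MB-231 cells (SD, n = 3) and FOXA1 196 ± 22.1 CPM in MDA-MB-453 cells against 3.45 ± 1.99 CPM in MDA-MB-231 cells. CPM are counts scaled to library size with TMM factors over the 24 libraries. In 3 groups 1 library stood apart, with a chi-square per degree of freedom of 7.31 to 8.65 against the other libraries of its group, where the pairs without it had 2.96 to 3.76. These were fulvestrant replicate 1 of MDA-MB-231 and abemaciclib replicate 1 and fulvestrant replicate 3 of MDA-MB-453. Because a 3′ library counts transcript ends, these levels were not divided by length and were not compared between genes.

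The mitochondrial ribosome is built from ribosomal RNAs transcribed inside the organelle and from proteins that are all encoded in the nucleus, translated in the cytosol and imported. It translates the small set of messenger RNAs of the mitochondrial genome, which encode core subunits of the respiratory chain and ATP synthase. The large subunit forms the peptide bond and holds the exit tunnel, which faces the inner membrane, while the small subunit binds the messenger RNA and decodes it. NRF1, the ETS-family factor GABP and YY1 are known regulators of nuclear genes for mitochondrial proteins.

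The genes were scattered over 21 chromosomes, and 27 of the 78 (34.6%) started within 1000 bases of the start of a protein-coding gene on the opposite strand, compared with 13.4% of all 20046 protein-coding genes in GENCODE. A start was taken here as the outermost end of the gene in GENCODE, which can differ from the RefSeq start used for the windows. RefSeq promoter windows, from 250 bases before to 50 after the start, matched 69 of the 78 symbols. The ETS motif CCGGAAG was present in 42.0% of these windows, compared with 14.4% of the 15345 windows of protein-coding genes. For the YY1 motif AAGATGG, which contains an ATG and can therefore mark a start codon, the shares were 33.3% and 6.43%. The NRF1 motif GCATGCGC was present in 8.70% and 4.25%, and CCAAT in 29.0% and 36.6%. Both strands were searched with exact letters, and GCATGCGC can overlap its own reverse complement, and CCGGAAG and AAGATGG can share AAG. The NRF1 motif was found in 4 of 20 windows of genes called lower with abemaciclib in both lines and in 0 of 19 windows of genes tested in both lines and called lower in neither. The ETS motif was found in 9 of those 20 and in 6 of those 19 windows, the YY1 motif in 8 and 6, and CCAAT in 6 and 7. Among 46 windows of genes called lower in at least 1 line, 6 held the NRF1 motif. These matches describe the letters only, and no test was made of them.

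Promoter windows of 4 genes that the results below turn on are shown from RefSeq on GRCh38.p14, 5′ to 3′ on the strand of the gene, with every match to the 4 motifs in capitals. MRPS18C, at chr4:83455808-83456107 on the plus strand, was lower after abemaciclib in both lines, and its window holds an ETS, a CCAAT and an NRF1 match. MRPL11, at chr11:66438799-66439098 on the minus strand, fell most in MDA-MB-453 cells and has only a YY1 match, starting at base 25 after the start. MRPL58, at chr17:75012420-75012719 on the plus strand, fell most in MDA-MB-231 cells and has 2 ETS matches. MRPS21, at chr1:150293611-150293910 on the plus strand, was higher after abemaciclib in both lines and also has 2 ETS matches, beside a CCAAT match.
MRPS18C: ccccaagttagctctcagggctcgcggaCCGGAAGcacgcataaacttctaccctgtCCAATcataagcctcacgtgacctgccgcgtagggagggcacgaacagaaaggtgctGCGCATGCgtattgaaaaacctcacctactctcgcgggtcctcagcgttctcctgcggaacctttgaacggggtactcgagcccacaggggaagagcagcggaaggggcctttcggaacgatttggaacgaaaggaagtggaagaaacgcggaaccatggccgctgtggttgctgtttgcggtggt
MRPL11: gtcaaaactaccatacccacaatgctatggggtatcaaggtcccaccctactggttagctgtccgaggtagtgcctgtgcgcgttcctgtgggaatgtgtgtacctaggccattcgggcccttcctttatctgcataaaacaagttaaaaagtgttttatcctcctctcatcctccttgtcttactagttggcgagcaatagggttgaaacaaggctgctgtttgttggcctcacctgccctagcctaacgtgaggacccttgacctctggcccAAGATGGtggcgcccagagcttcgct
MRPL58: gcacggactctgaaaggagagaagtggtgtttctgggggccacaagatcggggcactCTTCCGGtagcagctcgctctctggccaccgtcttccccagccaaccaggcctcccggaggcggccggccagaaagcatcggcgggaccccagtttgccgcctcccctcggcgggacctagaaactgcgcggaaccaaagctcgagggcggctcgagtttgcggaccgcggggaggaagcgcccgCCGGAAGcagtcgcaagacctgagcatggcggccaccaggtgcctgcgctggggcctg
MRPS21: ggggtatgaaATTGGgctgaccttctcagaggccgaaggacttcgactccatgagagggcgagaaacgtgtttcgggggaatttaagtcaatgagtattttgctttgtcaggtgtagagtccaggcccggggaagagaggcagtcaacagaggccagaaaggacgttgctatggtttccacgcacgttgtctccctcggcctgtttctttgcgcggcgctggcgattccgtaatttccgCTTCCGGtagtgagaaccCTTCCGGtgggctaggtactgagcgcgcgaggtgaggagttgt
Motifs of the same kind were thus present in the windows of genes that fell and of the gene that rose.

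Abemaciclib lowered the messenger RNA of many mitochondrial ribosomal proteins in both lines. Among the 74 genes that passed the filter on low counts in MDA-MB-231 cells, 33 were lower and 4 higher than under DMSO, where 16.9% of all 11314 genes tested were lower and 16.9% higher. Among the 74 that passed in MDA-MB-453 cells, 38 were lower and 1 higher, where 19.4% of 11080 genes were lower and 16.6% higher. The median log2 fold change of the tested genes was −0.32 in MDA-MB-231 cells and −0.38 in MDA-MB-453 cells, while that of all genes tested was 0.00 in both (−0.00053 and −0.0019). A gene was called at an adjusted p below 0.05 (edgeR quasi-likelihood test, Benjamini-Hochberg over all genes tested). In MDA-MB-453, offsets for GC content and transcript length changed the split to 33 lower and 6 higher, and leaving out abemaciclib replicate 1 to 36 lower and 2 higher. In bulk libraries, less of an RNA in every cell and fewer cells with a high level of it cannot be told apart, and these relative levels do not show the amount of RNA per cell.

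**Figure D1:**
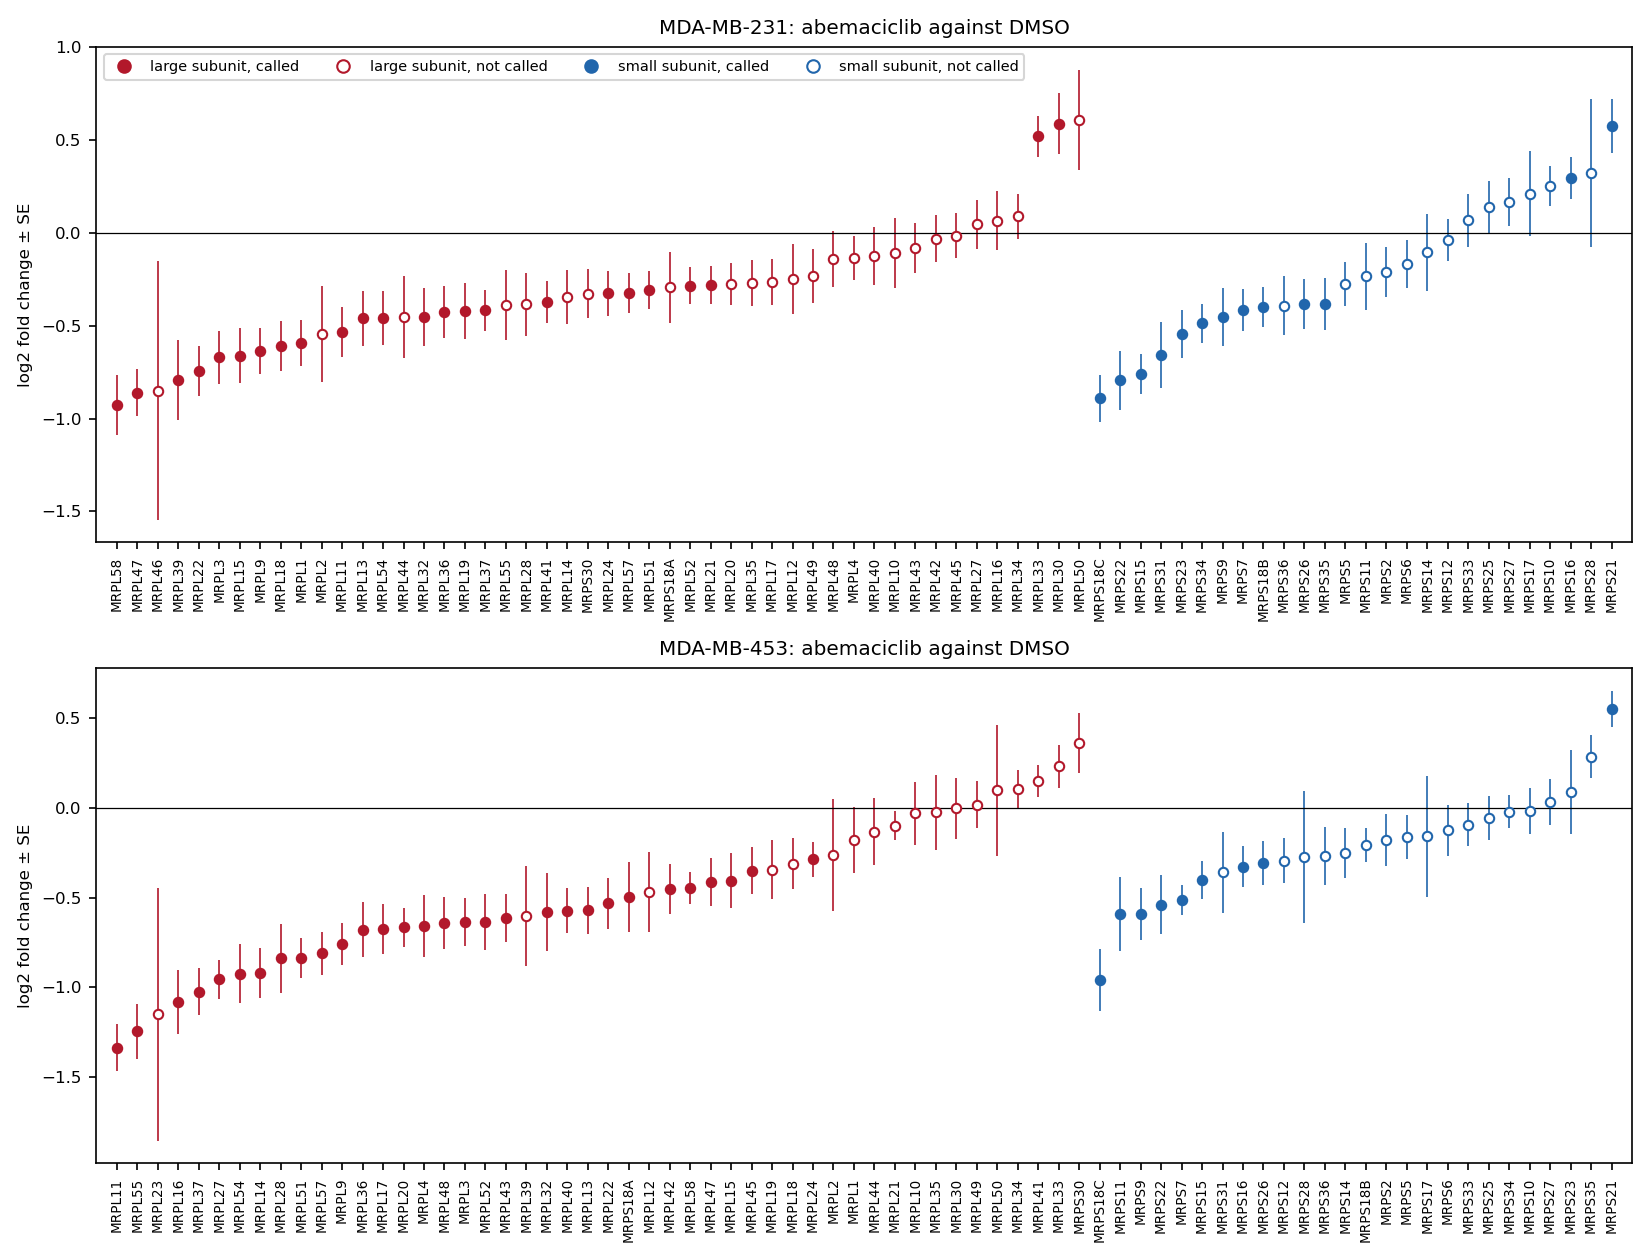
Log2 fold change of each tested mitochondrial ribosomal protein gene with abemaciclib against DMSO (vertical axis, ± SE) in MDA-MB-231 (top) and MDA-MB-453 (bottom), with genes ordered by value within the large subunit (red) and the small subunit (blue). Filled points are called genes, and most of the called points lie below 0 in both lines, 33 in MDA-MB-231 cells and 38 in MDA-MB-453 cells.

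With abemaciclib, the median change of the large subunit was further from 0 than that of the small subunit, most of all in MDA-MB-453 cells. Of 48 large-subunit genes tested there, 30 were lower and 0 higher with a median log2 fold change of −0.55, whereas of 26 small-subunit genes 8 were lower and 1 higher with a median of −0.23. In MDA-MB-231 the medians were −0.33 and −0.25, with 22 of 48 large-subunit and 11 of 26 small-subunit genes lower and 2 higher in each. With the combination against fulvestrant the wider gap was in MDA-MB-231 cells. Medians there were −0.40 and −0.25, with 27 of 48 large-subunit and 8 of 26 small-subunit genes lower. In MDA-MB-453 they were −0.27 and −0.22, with 22 of 48 and 7 of 26 lower. The difference between the subunits was not tested.

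Summed over the genes, the levels separated all abemaciclib from all DMSO libraries within each line. The large-subunit share of counts from nuclear genes was 0.499%, 0.488% and 0.490% in the DMSO libraries of MDA-MB-231 and 0.427%, 0.421% and 0.405% in the abemaciclib libraries. The small-subunit share was 0.281%, 0.286% and 0.269% against 0.248%, 0.249% and 0.241%. In neither subunit did the treated and control libraries overlap, and the mean share decreased by 15.2% for the large and by 11.7% for the small subunit. In MDA-MB-453 the large-subunit share was 0.558%, 0.543% and 0.551% under DMSO and 0.450%, 0.434% and 0.430% with abemaciclib. The small-subunit share there was 0.309%, 0.323% and 0.309% against 0.292%, 0.294% and 0.279%. Again the groups did not overlap, and the mean decreased by 20.5% for the large and by 8.05% for the small subunit. On the log2 scale these MDA-MB-453 changes were −0.33 and −0.12, and they became −0.51 and −0.22 as a mean of log2 CPM over genes and −0.48 and −0.28 with all counts as denominator. The ratio of large-subunit to small-subunit counts was 1.76 ± 0.0651 under DMSO and 1.52 ± 0.0384 with abemaciclib in MDA-MB-453 cells, and 1.77 ± 0.0555 and 1.70 ± 0.0206 in MDA-MB-231 cells (SD, n = 3).

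The share of all counts from mitochondrially encoded RNAs moved the other way. In MDA-MB-231 it was 8.69%, 9.08% and 8.74% under DMSO and 12.4%, 11.1% and 13.2% with abemaciclib. The MDA-MB-453 shares were 14.8%, 14.9% and 16.0% under DMSO and 21.8%, 24.2% and 25.5% with abemaciclib. Here too the groups did not overlap in either line. The denominator of the ribosomal protein shares leaves mitochondrially encoded counts out, so a rise of one share does not by arithmetic lower the other. MT-RNR1 and MT-RNR2, the ribosomal RNAs of the same particle, had log2 fold changes of 0.36 ± 0.09 (SE, adjusted p = 0.0027) and 0.65 ± 0.12 (adjusted p = 4.306e-05) in MDA-MB-231 cells. In MDA-MB-453 they had 0.58 ± 0.07 (adjusted p = 1.297e-08) and 1.12 ± 0.10 (adjusted p = 1.208e-12). The counts of the RNA components and of the protein messenger RNAs of the mitochondrial ribosome therefore changed in opposite directions, although oligo-dT priming captures only the adenylated part of either ribosomal RNA. The part of the mitochondrial RNA share in the lower ribosomal protein levels was not tested.

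Of the 15 mitochondrially encoded RNAs tested, 9 were higher and 1 lower with abemaciclib in MDA-MB-231 cells, and 14 were higher and 0 lower in MDA-MB-453 cells. The 1 lower RNA was MT-ND6, a subunit of complex I and the only protein gene on the light strand (log2 −1.87 ± 0.16, adjusted p = 2.232e-12). As for the ribosomal RNAs, oligo-dT priming captures only the adenylated part of this RNA. In MDA-MB-453 the largest change was in MT-ATP8, an ATP synthase subunit (log2 1.22 ± 0.17, adjusted p = 7.304e-08). MT-CO2, a cytochrome c oxidase subunit, rose in both (log2 1.12 ± 0.07, adjusted p = 1.338e-16, and 0.67 ± 0.06, adjusted p = 3.082e-12).

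**Figure D2:**
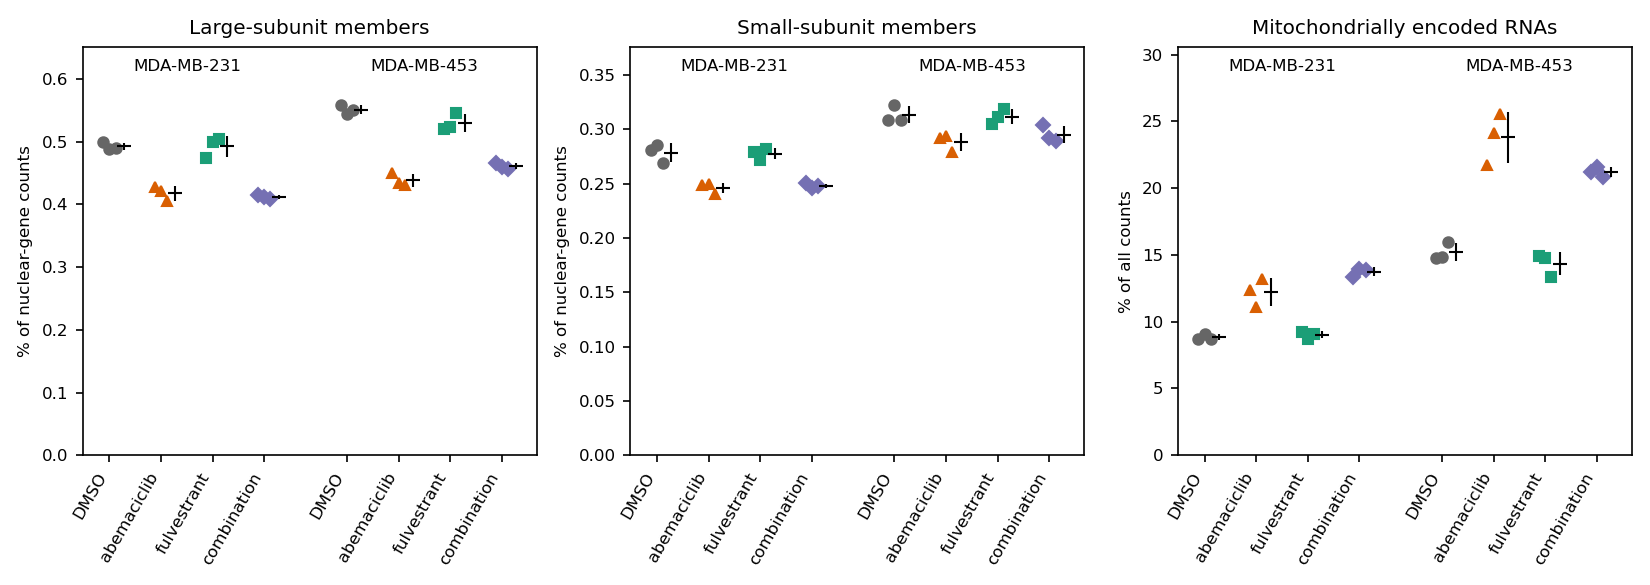
Summed share of counts in each library (points, 3 per group) for large-subunit genes, small-subunit genes and mitochondrially encoded RNAs, with the mean ± SD beside each group. The vertical axes give per cent of counts from nuclear genes (left and middle) or of all counts (right), and in both lines the abemaciclib and combination libraries lie below DMSO and fulvestrant on the left and above them on the right.

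The 3 homologues of the bacterial protein S18 illustrate how unequal the genes were. MRPS18C, which takes the place of the bacterial protein in the small subunit, lies at chr4:83455932-83469735 on the plus strand in GRCh38, and 1956 of its exon bases are shared with ABRAXAS1 on the opposite strand. Its level was 119, 121 and 102 CPM under DMSO and 55.0, 61.0 and 67.8 CPM with abemaciclib in MDA-MB-231 cells. The MDA-MB-453 levels were 49.5, 54.0 and 46.9 CPM under DMSO and 28.6, 24.4 and 24.4 CPM with abemaciclib. Treated libraries were all below the controls in both lines, and the log2 fold changes were −0.89 ± 0.13 (SE, adjusted p = 3.176e-07) and −0.96 ± 0.17 (adjusted p = 1.272e-05). With abemaciclib, 41 of 74 mitochondrial ribosomal protein genes in MDA-MB-231 cells and 42 of 74 in MDA-MB-453 cells were so separated. Among all genes tested, 22.5% and 23.7% were. Genes named for a large called change are likely to be separated in this way.

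MRPS18B, a second small-subunit homologue, was at 220, 198 and 208 CPM under DMSO and 158, 162 and 155 CPM with abemaciclib in MDA-MB-231 cells, a log2 fold change of −0.40 ± 0.11 (adjusted p = 0.0034). In MDA-MB-453 it did not pass the test (log2 −0.20 ± 0.10, adjusted p = 0.091), although its 3 treated libraries, at 192, 193 and 192 CPM, were all below the controls at 218, 221 and 223 CPM. Such a separation was found for 23.7% of all genes tested there. MRPS18A, the large-subunit homologue, had a log2 fold change of −0.29 ± 0.19 (adjusted p = 0.25) in MDA-MB-231 cells and of −0.50 ± 0.19 (adjusted p = 0.040) in MDA-MB-453 cells. The latter call did not survive leaving out DMSO replicate 2 or 3 or abemaciclib replicate 1 or 3, with an adjusted p of up to 0.43 over all alternatives.

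Among large-subunit genes, MRPL11 encodes a protein at the base of the stalk to which translation factors bind. The gene lies at chr11:66435075-66466738 on the minus strand, and 119 exon bases overlap PELI3 on the other strand. This GENCODE span reaches upstream beyond the RefSeq promoter window shown above. In MDA-MB-453 its level was 129, 104 and 119 CPM under DMSO and 46.8, 46.7 and 46.2 CPM with abemaciclib. In MDA-MB-231 it was 110, 99.0 and 120 CPM against 88.0, 79.4 and 59.8 CPM. The groups were apart in both lines, with log2 fold changes of −1.34 ± 0.13 (adjusted p = 1.372e-11) and −0.53 ± 0.14 (adjusted p = 0.0019).

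MRPL58 encodes a ribosome-bound peptidyl-tRNA hydrolase that releases stalled chains, and lies at chr17:75012670-75021261 on the plus strand without exon overlap with another gene. Its level in MDA-MB-231 cells was 68.6, 71.0 and 54.9 CPM under DMSO and 41.6, 33.6 and 27.0 CPM with abemaciclib, a log2 fold change of −0.93 ± 0.16 (adjusted p = 1.237e-05). The MDA-MB-453 levels were 276, 274 and 270 CPM against 214, 193 and 197 CPM (log2 −0.45 ± 0.09, adjusted p = 6.673e-05). All treated libraries were below all controls within each line, but the call in MDA-MB-453 cells was lost with offsets for GC content and length (log2 −0.20, adjusted p = 0.073).

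MRPL47, whose product lies near the exit of the peptide tunnel, was at 103, 96.1 and 104 CPM under DMSO and 54.2, 55.9 and 56.1 CPM with abemaciclib in MDA-MB-231 cells (log2 −0.86 ± 0.13, adjusted p = 7.333e-07). In MDA-MB-453 the log2 fold change was −0.41 ± 0.13 (adjusted p = 0.013), a call lost without DMSO replicate 3 or with GC and length offsets (adjusted p up to 0.14). MRPS22, a small-subunit protein without a bacterial counterpart, was at 74.9, 69.5 and 69.4 CPM under DMSO and 42.7, 40.5 and 39.8 CPM with abemaciclib in MDA-MB-231 cells (log2 −0.79 ± 0.16, adjusted p = 0.00011). In MDA-MB-453 its log2 fold change was −0.54 ± 0.17 (adjusted p = 0.0090), and this call did not hold without abemaciclib replicate 3 (adjusted p = 0.082). Up to 6378 exon bases of MRPS22 are shared with COPB2 and other genes on the opposite strand. For both genes the decrease was clear of the spread in MDA-MB-231 cells and depended on single libraries in MDA-MB-453 cells.

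In MDA-MB-453 the next largest called decreases were in MRPL55, MRPL16 and MRPL37. MRPL55, a protein specific to mitochondria, was at 70.0, 64.8 and 70.1 CPM under DMSO and 33.2, 27.1 and 26.1 CPM with abemaciclib (log2 −1.24 ± 0.15, adjusted p = 6.872e-09). MRPL16, a conserved protein near the peptidyl transferase centre, was at 56.9, 50.9 and 48.6 CPM against 20.9, 30.4 and 23.1 CPM (log2 −1.08 ± 0.18, adjusted p = 3.299e-06). MRPL37, another mitochondrial addition to the large subunit, was at 152, 137 and 137 CPM against 60.5, 71.7 and 78.7 CPM (log2 −1.02 ± 0.13, adjusted p = 1.263e-08). In each of these the highest treated library was below the lowest control, as in 23.7% of all genes tested in that line.

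Several genes did not follow. MRPS21, a small-subunit protein at chr1:150293861-150308979 on the plus strand, rose in both lines. Its level was 43.9, 39.2 and 46.3 CPM under DMSO and 71.8, 61.3 and 59.8 CPM with abemaciclib in MDA-MB-231 cells (log2 0.58 ± 0.15, adjusted p = 0.0017). The MDA-MB-453 levels were 107, 116 and 108 CPM against 165, 163 and 158 CPM (log2 0.55 ± 0.10, adjusted p = 2.438e-05). All treated libraries were above all controls, as for 21.6% of all genes tested in each line. In MDA-MB-231 alone, MRPL30 (log2 0.59 ± 0.16, adjusted p = 0.0044) and MRPL33 (log2 0.52 ± 0.11, adjusted p = 2.0e-04), both large-subunit proteins, were also called higher. Their log2 fold changes in MDA-MB-453 cells were −0.0025 ± 0.17 and 0.23 ± 0.12, and neither passed the test, although MRPL33 was called higher without abemaciclib replicate 2 and with GC and length offsets. MRPL30 shares 564 and MRPL33 324 exon bases with other genes on the same strand.

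MRPS16, a conserved small-subunit protein, was the only gene called in opposite directions in the lines. It was at 124, 133 and 134 CPM under DMSO and 162, 176 and 141 CPM with abemaciclib in MDA-MB-231 cells (log2 0.30 ± 0.11, adjusted p = 0.036). In MDA-MB-453 cells it was at 155, 181 and 136 CPM against 139, 114 and 124 CPM (log2 −0.33 ± 0.11, adjusted p = 0.020), and the groups overlapped. Both calls were close to the threshold, with an adjusted p of up to 0.36 and 0.27 over the alternatives. The first was lost when any 1 DMSO library or abemaciclib replicate 1 or 2 was left out, and the second without DMSO replicate 2 or abemaciclib replicate 2. DNAJC9-AS1 shares 395 of its exon bases on the opposite strand.

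Of genes chosen for a special role of their product, MRPL10, MRPL12, MRPS12 and MRPL44 were called in neither line with abemaciclib, and MRPL45 in 1. MRPL12, which also binds the mitochondrial RNA polymerase, was at 46.2, 36.4 and 46.0 CPM under DMSO and 37.2, 43.1 and 28.03 CPM with abemaciclib in MDA-MB-231 cells (log2 −0.25 ± 0.19, adjusted p = 0.33). In MDA-MB-453 cells it was at 26.7, 30.6 and 25.8 CPM against 15.0, 24.4 and 21.1 CPM (log2 −0.47 ± 0.22, adjusted p = 0.10), and it was called lower there without abemaciclib replicate 2. Its partner in the stalk, MRPL10, had log2 fold changes of −0.11 ± 0.19 (adjusted p = 0.70) and −0.03 ± 0.17 (adjusted p = 0.91). MRPS12, which lies at the decoding centre, had log2 fold changes of −0.04 ± 0.11 (adjusted p = 0.84) and −0.29 ± 0.12 (adjusted p = 0.062), the latter called without DMSO replicate 1. MRPL44, which has an RNase-like fold, had −0.45 ± 0.22 (adjusted p = 0.11) and −0.13 ± 0.19 (adjusted p = 0.62). MRPL45, which tethers the ribosome to the inner membrane, had −0.01 ± 0.12 (adjusted p = 0.95) and −0.35 ± 0.13 (adjusted p = 0.030), the latter lost without DMSO replicate 1 or 3 or abemaciclib replicate 1 or 2.

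**Figure D3:**
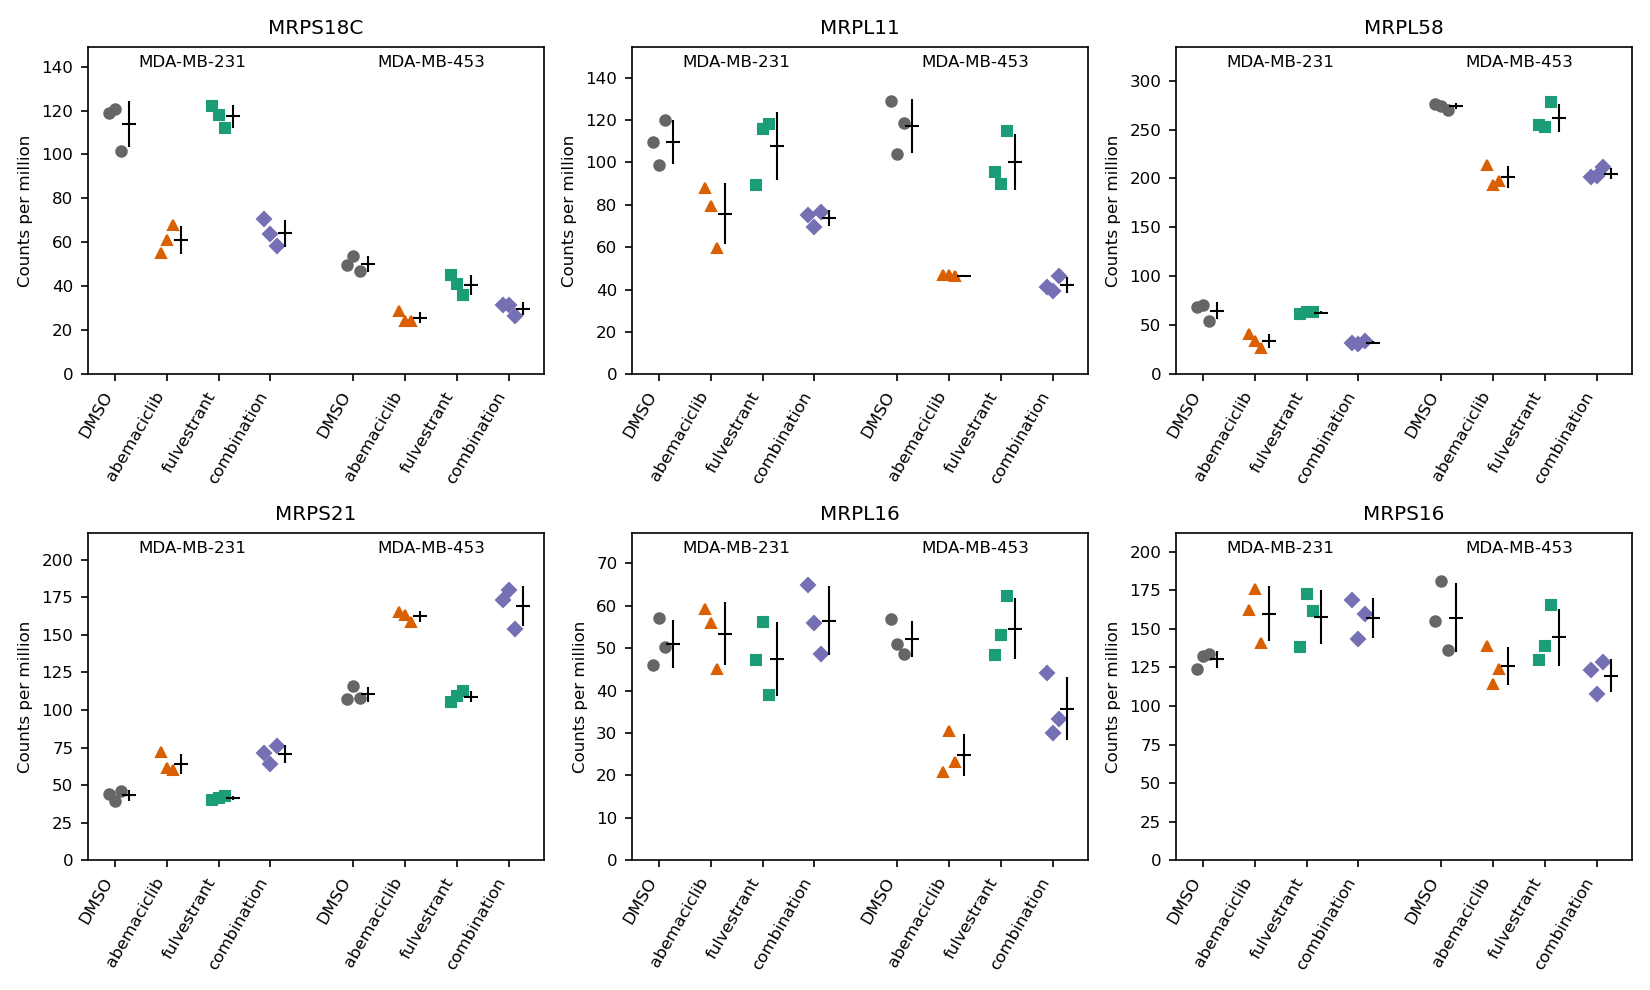
CPM of MRPS18C, MRPL11, MRPL58, MRPS21, MRPL16 and MRPS16 in each of the 24 libraries (points, 3 per group), with the mean ± SD beside each group and each vertical axis starting at 0. The first 3 genes are lower in abemaciclib and combination libraries of both lines, MRPS21 is higher, and MRPL16 is lower only among MDA-MB-453 libraries.

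Of the 78 genes, 5 failed the filter in at least 1 line. MRPL38, MRPL53 and MRPS24 were tested in neither line, with 4, 1 and 24 counts over all 24 libraries. Exon bases of these 3 genes are shared with other genes on the same strand, in GENCODE, as for 18 of the 78 genes in all. Reads of such bases may not have been assigned to them, which was not tested. MRPL23 was tested only in MDA-MB-453 cells and MRPL46 only in MDA-MB-231 cells, and both averaged under 5 CPM in every group. 3 counts, taken as the lowest level that can be told from 0, corresponded to 0.697 to 1.05 CPM depending on the library.

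The combination with fulvestrant gave a second comparison with separate libraries. Relative to fulvestrant alone, the combination lowered 35 genes and raised 3 of the 74 tested in MDA-MB-231 cells, where 18.5% of all genes tested were lower and 17.6% higher. In MDA-MB-453 it lowered 29 and raised 3 of 74, where 19.4% were lower and 17.2% higher. Median log2 fold changes were −0.30 and −0.26. Without fulvestrant replicate 1 in MDA-MB-231 cells 32 were lower and 2 higher, and without fulvestrant replicate 3 in MDA-MB-453 cells 25 were lower and 3 higher. Large-subunit shares were 0.473%, 0.5001% and 0.504% under fulvestrant and 0.416%, 0.412% and 0.409% under the combination in MDA-MB-231 cells, a decrease of the mean by 16.3%. In MDA-MB-453 they were 0.520%, 0.524% and 0.546% against 0.467%, 0.460% and 0.456%, a decrease by 13.0%. The mean small-subunit share decreased by 10.7% in MDA-MB-231 cells and by 5.25% in MDA-MB-453 cells. Groups did not overlap in either line for either subunit. For the small subunit in MDA-MB-453 cells they nearly touched, with the highest combination library at 0.3036% and the lowest fulvestrant library at 0.3045%.

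Since abemaciclib against DMSO and combination against fulvestrant share no library, the genes called in each could be matched. In MDA-MB-231, 24 genes were lower in both, which is 72.7% of the 33 and 68.6% of the 35. In MDA-MB-453, 23 genes were lower in both, which is 60.5% of the 38 and 79.3% of the 29. Of all genes lower with abemaciclib, 69.3% in MDA-MB-231 cells and 68.9% in MDA-MB-453 cells were also lower in the second comparison, so the agreement of these genes was close to that of any gene called lower. No mitochondrial ribosomal protein gene was called in opposite directions within a line. Between lines, 22 of the 73 genes tested in both were lower with abemaciclib in each, which is 66.7% of those lower in MDA-MB-231 cells and 57.9% of those lower in MDA-MB-453 cells. For all genes these shares were 45.8% and 41.3%.

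Across these 4 comparisons, 13 of 73 genes were lower in all, or 17.8%, compared with 6.40% of the 9691 genes tested in all 4. They were MRPL3, MRPL9, MRPL11, MRPL15, MRPL37, MRPL47, MRPL51, MRPL52, MRPL57, MRPL58, MRPS7, MRPS15 and MRPS18C, of which 10 belong to the large subunit and 3 to the small. Calls of MRPL47 and MRPL58 in MDA-MB-453 cells were lost under the alternatives given above. Those of MRPL37 and MRPS7 with abemaciclib in MDA-MB-231 cells were lost when a fold change above 1.2 was required. MRPL52 was not firm either, since its call with abemaciclib in MDA-MB-231 cells (log2 −0.28 ± 0.10, adjusted p = 0.023) did not survive leaving out DMSO replicate 1 or 2 or abemaciclib replicate 1 or 3. For these 13, single-gene alternatives covered abemaciclib against DMSO only. They were not made for MRPL3, MRPL9, MRPL15, MRPL51, MRPL57 and MRPS15. MRPS7, a small-subunit protein that nucleates assembly around its ribosomal RNA, had log2 fold changes of −0.41 ± 0.11, −0.48 ± 0.11, −0.51 ± 0.08 and −0.38 ± 0.08 with abemaciclib and with the combination in MDA-MB-231 cells, then with each in MDA-MB-453 cells. For MRPS18C they were −0.89 ± 0.13, −0.87 ± 0.12, −0.96 ± 0.17 and −0.46 ± 0.17. MRPS21 was the only gene higher in all 4, or 1.37% of the 73, compared with 2.95% of the 9691 genes. Its log2 fold changes were 0.58 ± 0.15, 0.77 ± 0.14, 0.55 ± 0.10 and 0.63 ± 0.10. MRPL12, which missed the threshold with abemaciclib alone, was called lower with the combination against fulvestrant in MDA-MB-231 cells (log2 −0.87 ± 0.19, adjusted p = 0.00031) and MDA-MB-453 (log2 −0.64 ± 0.22, adjusted p = 0.019).

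**Figure D4:**
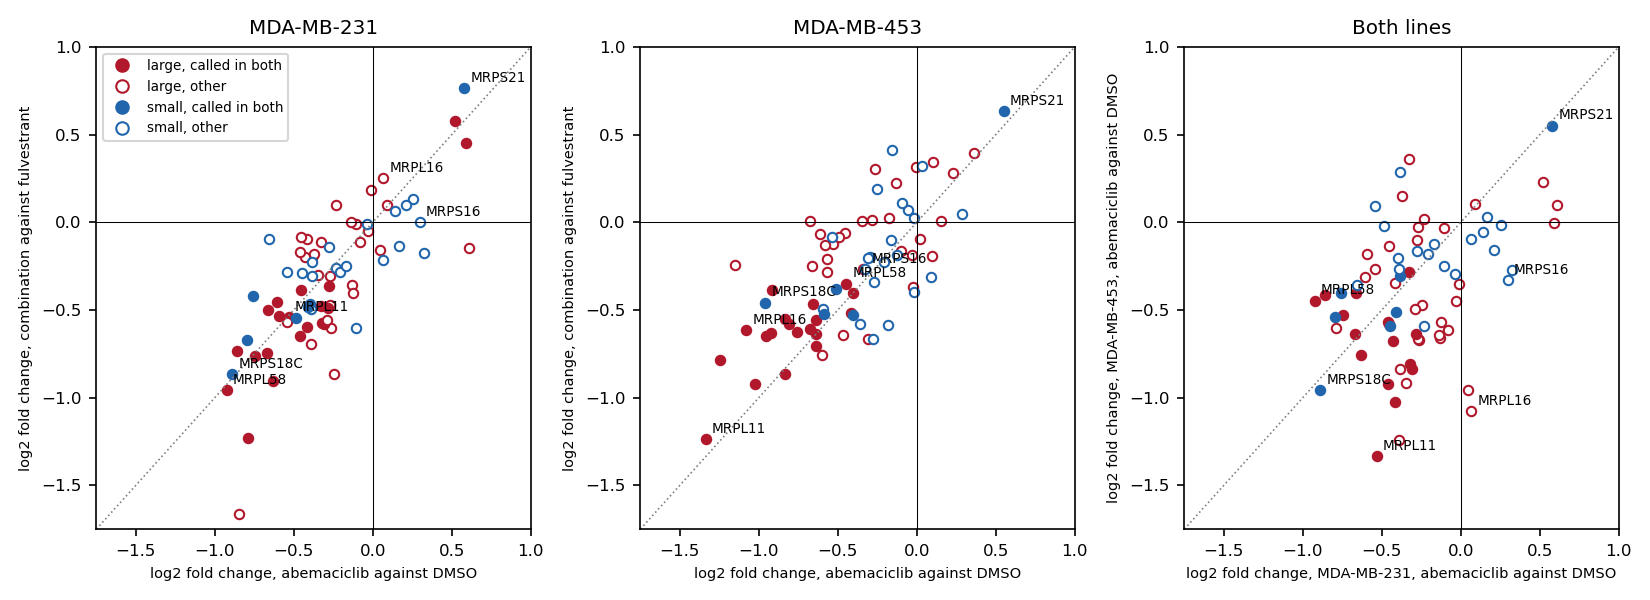
Log2 fold changes of each mitochondrial ribosomal protein gene in pairs of comparisons that share no library, with abemaciclib against DMSO on the horizontal axis and combination against fulvestrant (left, MDA-MB-231; middle, MDA-MB-453) or abemaciclib in MDA-MB-453 cells (right) on the vertical axis. Filled points were called in the same direction in both, and the filled points at the lower left are the 24, 23 and 22 genes lower in both comparisons, while MRPS21 stands at the upper right in each panel.

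Against DMSO, the combination lowered 41 and raised 3 genes in MDA-MB-231 cells, where 18.3% of all genes tested were lower and 17% higher, and it lowered 36 and raised 4 in MDA-MB-453 cells, where 20% were lower and 17.6% higher. These comparisons use the same DMSO libraries as abemaciclib alone. Their medians were −0.39 and −0.36, beside −0.32 and −0.38 for abemaciclib alone.

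Fulvestrant alone gave no call among these genes. No mitochondrial ribosomal protein gene was called in MDA-MB-231 cells, where 0% of all genes tested were called, and 3 had an unadjusted p under 0.05. None was called in MDA-MB-453 cells, where 1.41% of genes were called, and 5 had an unadjusted p under 0.05, all of them lower. Of all genes tested, 799 of 11314 in MDA-MB-231 cells and 1504 of 11080 in MDA-MB-453 cells were under that limit. Neither count among the 74 genes was therefore above the background. DESeq2 likewise called 0 in each line. These counts depended on libraries that stood apart from their group. Without fulvestrant replicate 1, 205 of all genes were called in MDA-MB-231 cells in place of 0, none of them among these genes, and without fulvestrant replicate 3, 786 in place of 156 were called in MDA-MB-453 cells, among them MRPS34, which was lower. The median log2 fold changes were 0.0032 and −0.07. The summed share was 0.771% ± 0.0107 under DMSO and 0.770% ± 0.0164 under fulvestrant in MDA-MB-231 cells, and 0.864% ± 0.0039 and 0.841% ± 0.0205 in MDA-MB-453 cells (SD, n = 3), with overlapping groups in both. In MDA-MB-453, 9 of the 15 mitochondrially encoded RNAs were lower and 1 higher with fulvestrant.

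Adding fulvestrant to abemaciclib also gave no call, by edgeR or DESeq2, where 0.0265% of all genes tested were called in MDA-MB-231 cells and 2.46% in MDA-MB-453 cells. Without abemaciclib replicate 1, 518 in place of 273 of all genes were called in MDA-MB-453 cells and still none of these. At an unadjusted p under 0.05 there were 2 genes in MDA-MB-231 cells, both lower, and 10 in MDA-MB-453 cells, of which 8 were higher and 2 lower. Of all genes tested, 1148 of 11314 in MDA-MB-231 cells and 1666 of 11080 in MDA-MB-453 cells were under that limit. Neither count among the 74 genes was therefore above the background. The summed MDA-MB-453 share of the large subunit was 0.467%, 0.460% and 0.456% with the combination and 0.450%, 0.434% and 0.430% with abemaciclib alone, without overlap. The mitochondrially encoded share was 21.2% ± 0.381 with the combination and 23.8% ± 1.91 with abemaciclib (SD, n = 3). In MDA-MB-231 cells it went the other way, 13.7% with the combination and 12.2% with abemaciclib, also without overlap, while the large-subunit shares overlapped. MRPS2, a small-subunit protein at 56.5, 43.9 and 48.2 CPM with the combination and 74.1, 76.5 and 63.3 CPM with abemaciclib, came closest to a call (log2 −0.51 ± 0.15, adjusted p = 0.055) and was called lower under some of the alternatives.

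The abemaciclib response of 15 of 75 genes differed between the lines when the difference itself was tested in all 24 libraries. It was more negative in MDA-MB-453 cells for 10 genes and more positive for 5, where 13% of all 12750 genes tested were more negative and 7.72% more positive. The share more negative, 10 of 75, was close to that background. MRPL16 had the most negative called difference, at 45.9, 57.1 and 50.2 CPM under DMSO and 59.2, 55.9 and 45.1 CPM with abemaciclib in MDA-MB-231 cells, where it did not pass the test, beside the fall given above in MDA-MB-453 cells (difference −1.14 ± 0.25, adjusted p = 0.00046). MRPL27, whose bacterial homologue reaches the peptidyl transferase centre, was at 87.4, 80.8 and 82.9 CPM against 87.7, 94.6 and 76.6 CPM in MDA-MB-231 cells. In MDA-MB-453 cells it was at 163, 145 and 158 CPM against 80.3, 77.4 and 83.4 CPM (difference −0.99 ± 0.18, adjusted p = 2.269e-05). MRPL55 followed with −0.85 ± 0.25 (adjusted p = 0.0092) and MRPL11 with −0.80 ± 0.19 (adjusted p = 0.0019).

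In the other direction, MRPS30, MRPS35 and MRPL41 had the most positive differences. MRPS30, a large-subunit protein specific to mitochondria, was at 89.5, 83.4 and 84.4 CPM under DMSO and 71.5, 73.2 and 60.1 CPM with abemaciclib in MDA-MB-231 cells. In MDA-MB-453 cells it was at 41.2, 38.4 and 38.5 CPM against 63.7, 41.9 and 46.2 CPM. The groups moved apart in opposite directions, and although neither line passed the test on its own (MDA-MB-453 did without abemaciclib replicate 2) the difference did (0.70 ± 0.22, adjusted p = 0.016). For MRPS35, a small-subunit protein specific to mitochondria, the difference was 0.68 ± 0.19 (adjusted p = 0.0079), with log2 fold changes of −0.38 ± 0.14 in MDA-MB-231 cells and 0.29 ± 0.12 in MDA-MB-453 cells, the former lost without DMSO replicate 2 or 3 or abemaciclib replicate 1 and with GC and length offsets. The latter, just short of the threshold (adjusted p = 0.055), was called with DESeq2 size factors, without mitochondrially encoded rows, with only the compared groups fitted, with GC and length offsets and without abemaciclib replicate 1. For MRPL41 it was 0.53 ± 0.14 (adjusted p = 0.0045), with −0.37 ± 0.11 in MDA-MB-231 cells and 0.15 ± 0.09 in MDA-MB-453 cells, where GC and length offsets raised the value to 0.44 (adjusted p = 3.478e-05). MRPL41 was no longer called in MDA-MB-231 cells once DMSO replicate 3 or abemaciclib replicate 3 was left out.

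Untreated, the lines differed in 48 of the 75 genes tested, with 21 higher and 27 lower levels among MDA-MB-453 libraries, where 34.3% of all genes tested were higher and 35.6% lower. Both counts were thus close to the background. MRPL58 was the furthest above, at 276, 274 and 270 CPM in MDA-MB-453 cells and 68.6, 71.0 and 54.9 CPM in MDA-MB-231 cells (log2 difference 2.08 ± 0.11, adjusted p = 1.866e-21). MRPS7 (1.56 ± 0.09, adjusted p = 7.63e-20) and MRPL41, a large-subunit protein (1.39 ± 0.10, adjusted p = 4.538e-17), came next among genes averaging at least 10 CPM. MRPS23 was the furthest below, at 21.4, 21.4 and 21.4 CPM in MDA-MB-453 cells and 91.3, 80.5 and 83.8 CPM in MDA-MB-231 cells (log2 difference −1.99 ± 0.17, adjusted p = 3.317e-14). MRPL52 (−1.85 ± 0.13, adjusted p = 6.944e-18) and MRPL35 (−1.65 ± 0.17, adjusted p = 2.895e-12) followed. Genes of the same subunit therefore differed between the lines in both directions, and the large-to-small count ratio of 1.76 in MDA-MB-453 cells and 1.77 in MDA-MB-231 cells differed by less than the spread between libraries.

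Subunits of the mitochondrial ribosome whose symbols the rule did not match showed a similar mixture. Of the 5 tested, AURKAIP1 and GADD45GIP1, of the small and the large subunit, were lower with abemaciclib in both lines. AURKAIP1 had log2 fold changes of −0.41 ± 0.11 (adjusted p = 0.0024) and −0.39 ± 0.09 (adjusted p = 0.00065). GADD45GIP1 had −0.63 ± 0.10 (adjusted p = 2.325e-06) and −0.86 ± 0.11 (adjusted p = 1.067e-08). PTCD3, a pentatricopeptide repeat protein of the small subunit, was higher in MDA-MB-231 cells (0.53 ± 0.11, adjusted p = 3.0e-04). Among all genes tested, 16.9% were lower and 16.9% higher in MDA-MB-231 cells, and 19.4% lower and 16.6% higher in MDA-MB-453 cells.

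Other factors of mitochondrial translation were counted beside the shares of all genes given above, 16.9% lower and 16.9% higher for MDA-MB-231 and 19.4% lower and 16.6% higher for MDA-MB-453. Of 26 assembly factors tested, 2 were lower and 1 higher in MDA-MB-231 cells and 4 were lower and 1 higher in MDA-MB-453 cells, with medians of −0.20 and −0.08. With the combination against fulvestrant, 10 of the 26 were lower and 0 higher in MDA-MB-231 cells, with a median of −0.42, where 18.5% of all genes were lower, while 3 were lower and 2 higher in MDA-MB-453 cells, with a median of 0.14. NSUN4, which methylates the small ribosomal RNA and takes part in joining the subunits, was higher in both lines (0.89 ± 0.28, adjusted p = 0.011, and 0.66 ± 0.22, adjusted p = 0.014). DHX30, an RNA helicase, was lower in MDA-MB-231 cells (−0.64 ± 0.12, adjusted p = 6.199e-05), and FASTKD2, an RNA-binding protein, in MDA-MB-453 cells (−1.30 ± 0.21, adjusted p = 1.614e-06). RPUSD3, a pseudouridine synthase, was also lower there (−1.04 ± 0.20, adjusted p = 4.858e-05). Of 14 translation factors, 4 were lower and 0 higher in MDA-MB-231 cells, and 3 lower and 2 higher in MDA-MB-453 cells. TACO1, which activates translation of a cytochrome c oxidase subunit, was lower in both (−0.55 ± 0.17, adjusted p = 0.0078, and −0.56 ± 0.21, adjusted p = 0.034). C12orf65, a protein like release factors, was lower in MDA-MB-231 cells (−0.43 ± 0.15, adjusted p = 0.022), and OXA1L, which inserts new chains into the inner membrane, in MDA-MB-453 cells (−0.59 ± 0.14, adjusted p = 0.00083). SLIRP, which stabilises mitochondrial messenger RNA, was lower in both (−0.37 ± 0.09, adjusted p = 0.0020, and −0.65 ± 0.09, adjusted p = 1.022e-07). LRPPRC, its partner in the same complex, was lower in MDA-MB-231 cells (−0.30 ± 0.11, adjusted p = 0.036) and higher in MDA-MB-453 cells (0.44 ± 0.13, adjusted p = 0.0062).

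Of 16 mitochondrial aminoacyl-tRNA synthetases, which charge the organelle's transfer RNAs, 2 were lower and 1 higher in MDA-MB-453 cells, where SARS2 was lower (−1.12 ± 0.37, adjusted p = 0.016) and MARS2 higher (0.98 ± 0.39, adjusted p = 0.045). Of 6 genes of mitochondrial DNA transcription, 1 was called. This was TFAM, which packages and transcribes the mitochondrial genome, and it was lower in MDA-MB-231 cells (−0.81 ± 0.10, adjusted p = 2.231e-08). Of 8 nuclear regulators tested, 2 were lower and 1 higher in MDA-MB-231 cells and 3 were lower and 1 higher in MDA-MB-453 cells, beside the same shares of all genes. GABPB1, a GABP subunit, was lower in MDA-MB-231 cells (−1.53 ± 0.25, adjusted p = 3.685e-06), and NRF1 (−0.95 ± 0.34, adjusted p = 0.025) and GABPA (−0.97 ± 0.38, adjusted p = 0.042) in MDA-MB-453 cells. PPRC1, a co-activator, was lower in both (−0.58 ± 0.16, adjusted p = 0.0043, and −0.71 ± 0.26, adjusted p = 0.026), and ESRRA, a nuclear receptor, was higher in both (0.63 ± 0.19, adjusted p = 0.0070, and 0.68 ± 0.14, adjusted p = 0.00015). With the combination against fulvestrant, 3 of the 8 were lower and 0 higher in MDA-MB-231 cells, where 18.5% of all genes were lower and 17.6% higher. In MDA-MB-453 cells 1 was lower and 1 higher, where 19.4% were lower and 17.2% higher. With the combination against DMSO, 0 were lower and 1 higher in MDA-MB-453 cells, where 20% were lower and 17.6% higher. The part of these regulators in the levels of the ribosomal protein genes was not tested.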

How the data were processed

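Cell line libraries were prepared with the QuantSeq FWD kit, which primes at the poly(A) tail. According to the methods of the study, the authors used BBDuk for trimming, STAR for alignment to hg38 and featureCounts with a GENCODE annotation for counting per gene, and the deposited table holds these raw counts. The use of strand, multi-mapping reads and duplicates in counting is not given in the sources used here, so exons shared between genes on opposite strands may have been counted for either. Counts in 76 rows of pseudogenes of these genes came to 0.0191% of the counts of the genes themselves.

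edgeR 4.0.16 in R 4.3.3 was used (filterByExpr, TMM, glmQLFit and glmQLFTest), in 1 model per line with 12 libraries each, or of all 24 libraries for contrasts between lines. Adjusted p-values are Benjamini-Hochberg values over all genes tested, with a threshold of 0.05, and standard errors are the log2 fold change divided by the square root of F. P-values measure the spread between libraries labelled as replicates. CPM were scaled by TMM over 24 libraries. Between 2.64 and 8.65 times the sampling variance separated replicate libraries of a group, so none was a repeated deposit. The smallest shares rest on 17440 counts, and low counts limited MRPL23 and MRPL46. Genes, companion lists and motifs were chosen with earlier results of these data known. Genes were named by role (11 genes) and by rule, as the called genes with the largest changes in each direction (4 per line for abemaciclib, 3 for contrasts between lines) among those averaging at least 10 CPM, together with genes called in opposite directions or untested, and for other lists the 2 called genes of largest change per line. MRPS2, MRPS34, the genes lower in all 4 comparisons, AURKAIP1, PPRC1, SLIRP and LRPPRC in MDA-MB-231, LRPPRC in MDA-MB-453, and MT-RNR1, MT-RNR2 and MT-CO2 where they were not among those 2, were named after their values were seen. Positions are from GENCODE on GRCh38 and promoters from RefSeq on GRCh38.p14. Alternatives were DESeq2 1.42.0, its size factors, leaving out mitochondrially encoded rows, no filter, only the groups compared, a minimum fold change of 1.2, GC and length offsets, a replicate block and leaving out each library. Code was tested on simulated counts. No per-sample column was left out. A marker gene and a gene of the synthetase list are not reported here.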

Additional observations from a re-analysis of the deposited data

Results flagged for a closer look

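The abemaciclib effect differed between the lines, by the test of the difference itself, for 15 of 75 mitochondrial ribosomal protein genes, a share close to that of all genes tested (13% more negative and 7.72% more positive). Values are log2 differences, with the MDA-MB-231 effect subtracted from the MDA-MB-453 effect. The difference was negative for MRPL16 (-1.14), MRPL27 (-0.99), MRPL55 (-0.85), MRPL11 (-0.80), MRPS16 (-0.62) and MRPL37 (-0.60). It was positive for MRPL58 (0.49), MRPL41 (0.53), MRPS35 (0.68) and MRPS30 (0.70). For MRPS16 the effects had opposite signs and each passed the test, for MRPS30 they had opposite signs and neither did, and for MRPL58 both were negative with the larger decrease in MDA-MB-231.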

How the results depend on the processing

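Of 222 recomputed main results, 203 stayed on their side of the limit set for them and none changed direction. Requiring a fold change above 1.2 lowered the number of genes called in MDA-MB-231 to 19 for abemaciclib against DMSO, 24 for combination against fulvestrant and 25 for combination against DMSO. In MDA-MB-453 the same requirement left 20 for combination against fulvestrant and 23 for combination against DMSO, and it left 7 for the difference of the abemaciclib effects. For combination against abemaciclib in MDA-MB-453, 1 gene, MRPS2, was called lower with DESeq2 size factors, with a fit of only the groups compared, with all genes kept whatever their counts, with GC and length offsets and with the replicate block beside these offsets, in place of 0. For fulvestrant against DMSO in MDA-MB-453, 1 gene, MRPS34, was called lower without fulvestrant replicate 3, and the range over single libraries left out was 0 to 1.

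The log2 change of the summed large-subunit share with abemaciclib, -0.24 in MDA-MB-231 cells and -0.33 in MDA-MB-453 cells, became -0.29 and -0.48 with all counts as denominator and -0.30 and -0.51 as a mean of log2 CPM over genes. The small-subunit change, -0.18 and -0.12, became -0.23 and -0.28 with all counts as denominator, and -0.22 in MDA-MB-453 as a mean of log2 CPM. The larger denominator includes the mitochondrially encoded counts that rose.

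Leaving out single libraries gave 29 to 33 called genes for abemaciclib in MDA-MB-231 cells and 33 to 38 in MDA-MB-453 cells, 30 to 36 and 26 to 29 for combination against fulvestrant, 34 to 38 and 30 to 36 for combination against DMSO, 42 to 45 for the untreated lines and 12 to 16 for the difference of effects. Pairing of the libraries by replicate number was not detected. None of the 18 same-numbered pairs of either line had correlated deviations above 0.1, which does not exclude pairing. With the replicate block, 36 genes were called for abemaciclib in MDA-MB-231 cells and 38 in MDA-MB-453 cells, and 14 for the difference. DESeq2 called 37 and 38. For the genes named, 26 of 419 recomputed values in MDA-MB-231 cells and 27 of 420 in MDA-MB-453 cells lost their call, and 14 in MDA-MB-453 gained one. Depth limits the genes below about 1.05 CPM, where a library can hold 3 counts or fewer.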
